A study of Homo sapiens with 4 samples.

Results

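Interferon-stimulated genes with BST2 and MX1 are 9 genes that cells switch on after interferon reaches them: BST2, MX1, ISG15, IFI6, IFI27, IFIT1, IFITM1, OAS1 and IRF1. They were found as every probe of the non-normalized signal table whose platform gene symbol is in that list, which gave 14 of 48803 probes, for 9 of 18665 genes with a probe. Of the 9 genes, 8 were above background on at least 1 array and IFIT1 on none, at a detection p under 0.01. The study profiled messenger RNA of 4 human colon adenocarcinoma cultures with Illumina bead arrays, 1 array per culture. The cultures were LvM3b cells over-expressing miR-483 (the title of the series specifies miR-483-5p), LvM3b cells over-expressing miR-551a, LvM3b control cells, and Ls-Parental cells. LvM3b is known from published work as a derivative of a colon cancer line selected for growth in the liver, and Ls-Parental is labelled as the parental line, although its cell line entry reads LvM3b. All cultures grew in DMEM with serum and none is labelled as having received interferon. The vector behind each over-expression, and whether a culture was a clone or a pool, are not given in the sources used here.

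Interferons are secreted signals that bind receptors at the cell surface and activate the JAK kinases. These phosphorylate STAT proteins, which enter the nucleus with IRF9 and bind the interferon-stimulated response element (ISRE), while STAT dimers bind the gamma-activated site (GAS). The genes switched on there restrict viruses, present antigen and feed back on the pathway. Epithelial cells, the colon's included, carry receptors for type I, II and III interferons, and many tumour cell lines keep some of these genes on without added interferon.

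The promoters are shown because the members differed among themselves in direction between the lines. The stretches mark the ISRE and GAS letters of some members, and whether the letters go with direction was not tested. Sequences are RefSeq's on GRCh38.p14, 5′ to 3′ on the gene's strand, and capitals mark matches to the ISRE core (GAAA, any 2 bases, GAAA) on either strand or to the GAS form TTCNNNGAA, which reads the same on both strands. The forms may overlap each other. Windows ran from 250 bases before to 50 after each annotated start, and 8 members are covered here, with 11 windows.
BST2, chr19:17405665-17405781, minus strand: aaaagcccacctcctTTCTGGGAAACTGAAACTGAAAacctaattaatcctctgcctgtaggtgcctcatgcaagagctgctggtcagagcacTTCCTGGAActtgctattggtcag
MX1, chr21:41431839-41431884, plus strand: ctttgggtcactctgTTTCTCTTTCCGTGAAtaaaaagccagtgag
IRF1, chr5:132490874-132490912, minus strand: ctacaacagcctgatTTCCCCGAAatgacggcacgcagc
ISG15, chr1:1013369-1013414, plus strand: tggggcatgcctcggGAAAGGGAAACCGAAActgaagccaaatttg
IFI6, chr1:27672261-27672363, minus strand: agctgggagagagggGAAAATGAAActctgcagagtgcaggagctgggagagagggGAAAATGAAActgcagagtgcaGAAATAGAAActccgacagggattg
IFIT1, chr10:89392492-89392544, plus strand: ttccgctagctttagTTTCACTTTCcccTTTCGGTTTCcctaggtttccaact

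The ISRE core was found in 9 of the 11 member windows and the GAS form in 6, against 3.57% and 7.66% of all 35116 windows. The members were listed as interferon-stimulated genes, so this contrast describes the list and says nothing about these arrays. The windows of IFI27 overlap and hold the same matches, which were counted for each window. By gene, 7 of these 8 members held the ISRE core and 5 the GAS form. IRF1 held the GAS form and no ISRE core in its window. MX1 has 3 annotated starts, and only the printed window holds the GAS form. Another of its windows holds an ISRE core 12 bases after the start. IFI27 and IFITM1, whose stretches are not printed, held both motifs. In the quantile-normalized values IFI27 was lower on all 3 LvM3b arrays than on the Ls-Parental array. For IFITM1 the Ls-Parental level fell inside the range of the LvM3b arrays. The position of IFI27 did not hold on the authors' scaled values, and whether either motif goes with direction was not tested. A match describes letters only, and no binding was measured here.
The microRNA that the miR-551a culture over-expresses is shown with its seed, bases 2 to 8, in capitals.
hsa-miR-551a: gCGACCCAcucuugguuucca

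A probe was called detected at a detection p under 0.01, and 13861 to 14628 probes were detected per array. Levels are normalized signals on the log2 scale after background correction and quantile normalization, and a difference is a difference of such log2 levels. The lowest detected level was 6.15 on the miR-483 array, 6.19 on the miR-551a array, 6.38 on the LvM3b control array and 6.13 on the Ls-Parental array. With 1 array per group there was no test and no p-value. The precision is limited by the number of arrays, and every difference compares single arrays. In RNA from a whole culture, fewer cells expressing a gene and less RNA per cell cannot be told apart. Of 11 colon epithelial markers, 10 were detected on all arrays, among them EPCAM, CDH1, VIL1 and CDX2, and KRT20 on the Ls-Parental array only.

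The widest differences among the members lay between the lines, and BST2 led them. BST2, or tetherin, is a membrane protein that holds budding virus particles at the cell surface. Its deposited signal was 361.2 on the miR-483 array, 332.9 on the miR-551a array and 383.9 on the LvM3b control array, against 144.0 on the Ls-Parental array. All 3 LvM3b arrays were high and close together, and the Ls-Parental probe fell just short of detection (detection p 0.0119). On the normalized log2 scale BST2 lay at 8.04, 8.05 and 8.11 on these LvM3b arrays and at 6.02 on the Ls-Parental array. On these background-corrected levels BST2 was at least 3.95-fold higher in the LvM3b control than in Ls-Parental, measuring the LvM3b level against the lowest detected level of the other array, and the measured difference was 2.09 log2. Of the 9817 genes that either array detected, 0.601% differed by as much or more upwards. The size rests on the background correction, without which the measured difference was 1.28 log2, or 2.42-fold. Against Ls-Parental the miR-483 array was at least 3.76-fold higher, and the miR-551a array at least 3.80-fold, on the same corrected levels. Without the correction these measured differences came to 2.33-fold and 2.35-fold.

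MX1, a dynamin-like GTPase that blocks influenza and other viruses, was the other member at least 2-fold higher. Its deposited signal was 1198.4 with miR-483, 1089.6 for miR-551a and 1149.2 in the LvM3b control, against 511.1 in Ls-Parental. MX1 was well above background on every array, so its difference is measured on both sides. The normalized log2 levels were 10.03, 10.03 and 9.93 on the LvM3b arrays and 8.89 on the Ls-Parental array. LvM3b control over Ls-Parental came to 2.07-fold (1.05 log2), and the miR-483 and miR-551a arrays stood 2.21-fold above Ls-Parental. Without background correction the MX1 difference was 0.93, just under 2-fold.

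BST2 and MX1 made 2 of 8 detected members at least 2-fold higher in the LvM3b control than in Ls-Parental, and 0 of 8 were at least 2-fold lower. Over all 9817 genes, 3.07% were at least 2-fold higher and 2.74% at least 2-fold lower. Among 9006 genes detected on both arrays the share higher was 2.0%, and MX1 is the member that belongs there. BST2 and MX1 were also at least 2-fold higher on all 3 LvM3b arrays, as were 2.09% of the 10095 genes that any of the 4 arrays detected. The members were chosen with these differences known, so the count describes them and supports nothing further.

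**Figure D1:**
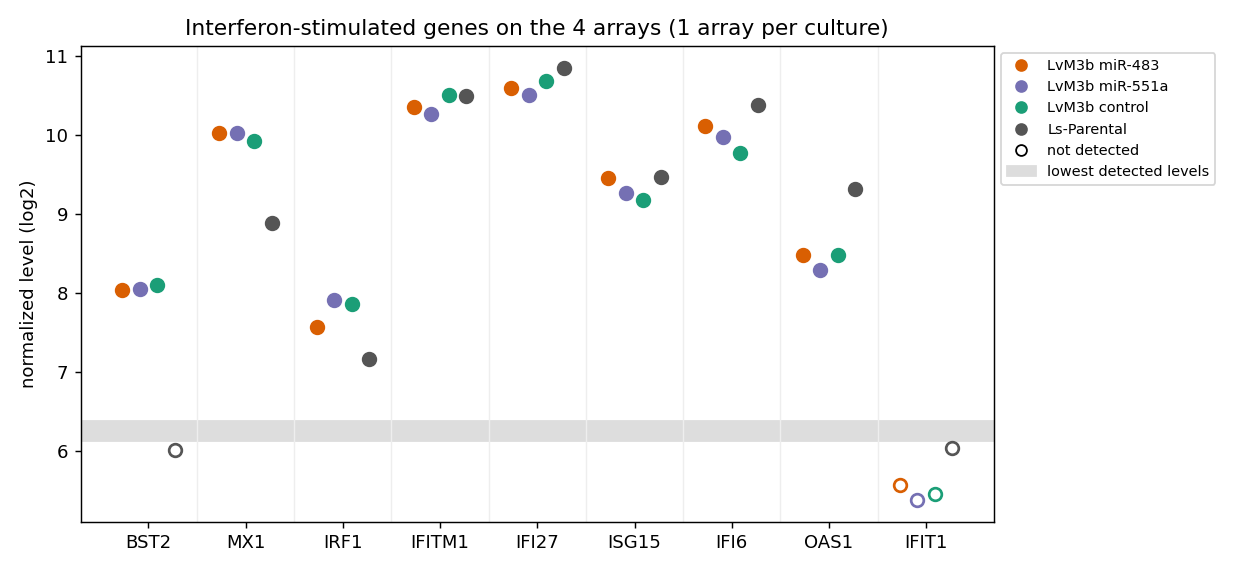
Normalized levels (log2, vertical axis) of the 9 interferon-stimulated genes, each from its brightest probe, with a point for each of the 4 arrays and open points where the probe was not detected. The grey band spans the lowest detected levels of the arrays, 6.13 to 6.38; BST2 and MX1 sit higher on all 3 LvM3b arrays than on the Ls-Parental array, while OAS1 sits lower, and IFIT1 lies under the band throughout.

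IRF1, a transcription factor induced by interferon gamma that itself binds interferon-response promoters, lay on the same side with a smaller difference. Its deposited signals were 286.0 with miR-483, 308.8 for miR-551a and 340.8 in the LvM3b control, against 217.2 in Ls-Parental. All 3 LvM3b arrays were above the Ls-Parental array, with log2 levels of 7.57, 7.92 and 7.87 against 7.17. LvM3b control over Ls-Parental was 1.63-fold (0.71 log2). The miR-483 array was the lowest of the LvM3b arrays for this gene and stood 1.32-fold above Ls-Parental. Without background correction IRF1 was 1.40-fold above Ls-Parental in the LvM3b control and 1.20-fold with miR-483.

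OAS1 and IFI6 went the other way. OAS1 makes 2-5A, the small RNA messenger that activates the RNA-cutting enzyme RNase L. Its brightest probe had signals of 462.4 with miR-483, 382.2 for miR-551a and 474.6 in the LvM3b control, against 663.0 in Ls-Parental. The normalized levels were 8.49, 8.30 and 8.48 against 9.32, so OAS1 was 1.79-fold lower in the LvM3b control (-0.84) and at or past 2-fold lower only on the miR-551a array (-1.02, and -0.95 to -0.76 under the 4 other scalings tried). In miR-551a over Ls-Parental, 3.67% of all genes were at least 2-fold lower. IFI6 encodes a small membrane protein with antiviral and anti-apoptotic activity. Its levels were 10.12, 9.99 and 9.77 on the miR-483, miR-551a and LvM3b control arrays, against 10.38 on the Ls-Parental array. IFI6 was thus 1.53-fold lower in the LvM3b control (-0.61), while the miR-483 array came within 0.26 of Ls-Parental.

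ISG15, a ubiquitin-like protein that is attached to other proteins after interferon, had levels of 9.47 with miR-483, 9.27 for miR-551a and 9.18 in the LvM3b control, against 9.47 in Ls-Parental. The miR-483 and Ls-Parental arrays were level with each other, and the LvM3b control was 1.23-fold lower than Ls-Parental (-0.30). IFI27, a mitochondrial and nuclear-membrane protein gene strongly induced by type I interferon, had levels of 10.60, 10.52 and 10.69 on the LvM3b arrays in the same order, against 10.86 in Ls-Parental. The LvM3b control differed from Ls-Parental by -0.17 for IFI27, but by 0.01 on the authors' scaled values, so its direction depends on the scaling. IFITM1, a membrane protein that blocks virus entry, had levels of 10.36, 10.27 and 10.52, against 10.50, and the LvM3b control differed by 0.02. It was the only detected member whose quantile-normalized Ls-Parental level fell inside the range of the LvM3b arrays, while ISG15 and IFI27 did so too on the authors' scaled values and ISG15 with median scaling.

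Seen together, 3 detected members (BST2, MX1 and IRF1) were higher on all 3 LvM3b arrays than on the Ls-Parental array, and 4 (OAS1, IFI6, ISG15 and IFI27) were lower on all 3 in the quantile-normalized values. On the authors' scaled values that held for OAS1 and IFI6 but not for IFI27 or ISG15. For ISG15 the miR-483 array then lay 0.12 log2 above Ls-Parental, and 0.16 above it with median scaling in place of quantile normalization. Among all 10095 genes detected on at least 1 array, 35.5% were higher on all 3 LvM3b arrays and 35.9% lower on all 3, so such agreement is common, and these comparisons share the Ls-Parental array. The median difference of the 8 detected members, LvM3b control over Ls-Parental, was -0.08, beside -0.01 over all genes, and it was 0.09 on the authors' scaled values. The members did not shift as a block. They ran between -0.84 and 2.09.

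**Figure D2:**
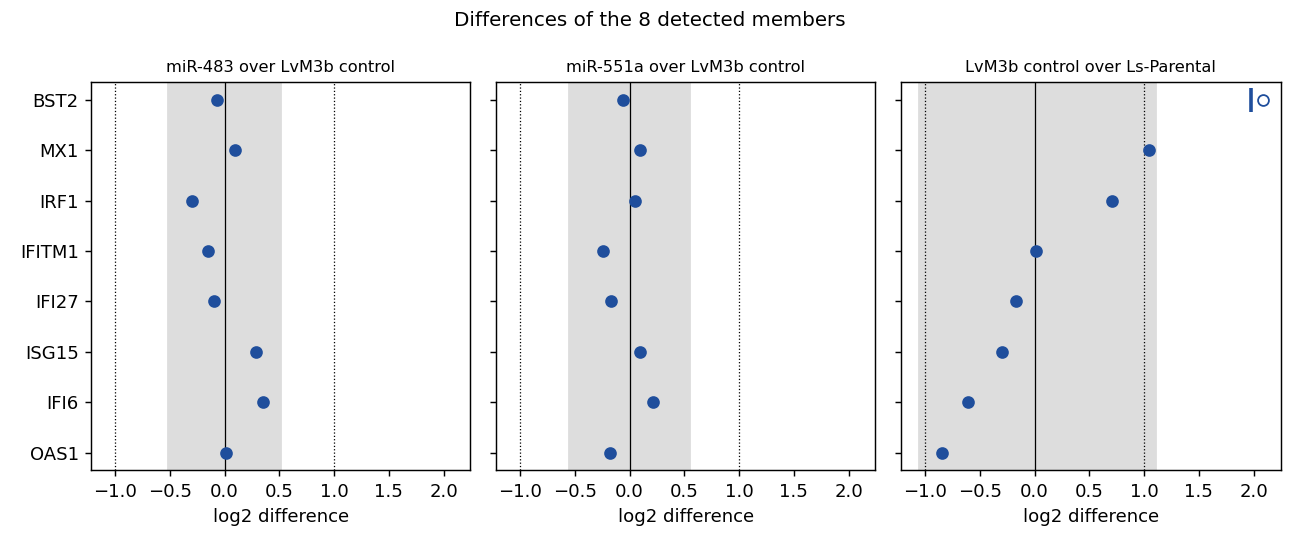
Log2 differences (horizontal axes) of the 8 detected members in the 3 comparisons, with the middle 95% of all detected genes shaded and dotted lines at 2-fold. The members stay inside the shading in both microRNA comparisons; in LvM3b control over Ls-Parental BST2 lies outside it, with an open point for the measured difference and a bar at its lower bound (1.98).

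The microRNA comparisons asked which messages changed when LvM3b cells carried extra miR-483 or miR-551a. None of the 8 detected members reached 2-fold in either. Over all genes 0.641% of 9673 did so for miR-483 over the LvM3b control and 0.582% of 9619 for miR-551a over it, and 0 of 8 is near that background. The medians of the members were -0.03 and 0.00, beside 0.01 and 0.01 over all genes. Each comparison uses the same control array.

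With miR-483, no member differed from the LvM3b control by more than 0.35 on its brightest probe. IFI6 was 1.27-fold higher than in the LvM3b control (0.35) and ISG15 1.22-fold higher (0.29). Of all genes, 6.2% were as far up as IFI6 and 9.14% as far up as ISG15. IRF1 was 1.23-fold lower (-0.30), and 8.49% of genes were as far down. IFITM1 differed by -0.15, IFI27 by -0.09 and BST2 by -0.07. MX1 differed by 0.09 and OAS1, by its brightest probe, by 0.01.

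With miR-551a, IFI6 was again the member furthest above the LvM3b control, by 1.16-fold (0.21). IFITM1 was furthest below it, by 1.18-fold (-0.24). OAS1 differed by -0.18 and IFI27 by -0.17. The remaining differences were 0.09 for MX1, 0.09 for ISG15, 0.05 for IRF1 and -0.06 for BST2. IRF1, lower with miR-483, was thus within 0.05 of the control with miR-551a. Across the 3 LvM3b arrays the span of a member, its highest minus its lowest level, ran between 0.07 for BST2 and 0.35 for IRF1 with a median of 0.22, and the median span of all 10095 genes was also 0.22. BST2 and MX1, the members that differed most between the lines, had the smallest spans among the 3 LvM3b arrays (0.07 and 0.09).

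Members with several probes show how far a value depends on the probe. OAS1 had 4 probes, of which the platform table assigns ILMN_2410826 and ILMN_1675640 to the same transcript and the others to different splice variants. ILMN_1675640 had levels of 7.78, 8.03 and 8.01 on the miR-483, miR-551a and LvM3b control arrays, against 8.72 in Ls-Parental, so it too was lower in the LvM3b control (-0.71). ILMN_1672606 did not separate the lines, at 7.09 in the LvM3b control and 7.13 in Ls-Parental. On the miR-551a array it lay at 6.47, and on the miR-483 array it was not detected. For that probe the miR-483 array was at least 1.92-fold lower than the LvM3b control on the background-corrected levels and 1.72-fold lower without the correction, the largest difference of any member probe in the microRNA comparisons. The first pair of probes differed by 0.01 and -0.24 in the same comparison. The last OAS1 probe, ILMN_1658247, was detected on no array. A mean over the 4 probes would put OAS1 at -0.53 with miR-483, and at -0.40 in place of -0.84 for LvM3b control over Ls-Parental.

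IFI6 had a second, dimmer probe with levels of 7.22 with miR-483, 6.74 for miR-551a and 6.86 in the LvM3b control, against 7.64 in Ls-Parental. It went the same way as the brighter probe in LvM3b control over Ls-Parental (-0.78) and in miR-483 over the LvM3b control (0.37), and the other way with miR-551a (-0.11). IFIT1, which binds viral RNA that lacks the host cap methylation, had a pair of probes with signals of 104.2 to 144.7, and neither was detected on any array. Its brighter probe came nearest to detection in Ls-Parental (detection p 0.0119). At a detection p under 0.05 that probe would count as detected on all 4 arrays. No difference is given for IFIT1. Each of the other 6 members had a single probe, so its values have no second reading.

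**Figure D3:**
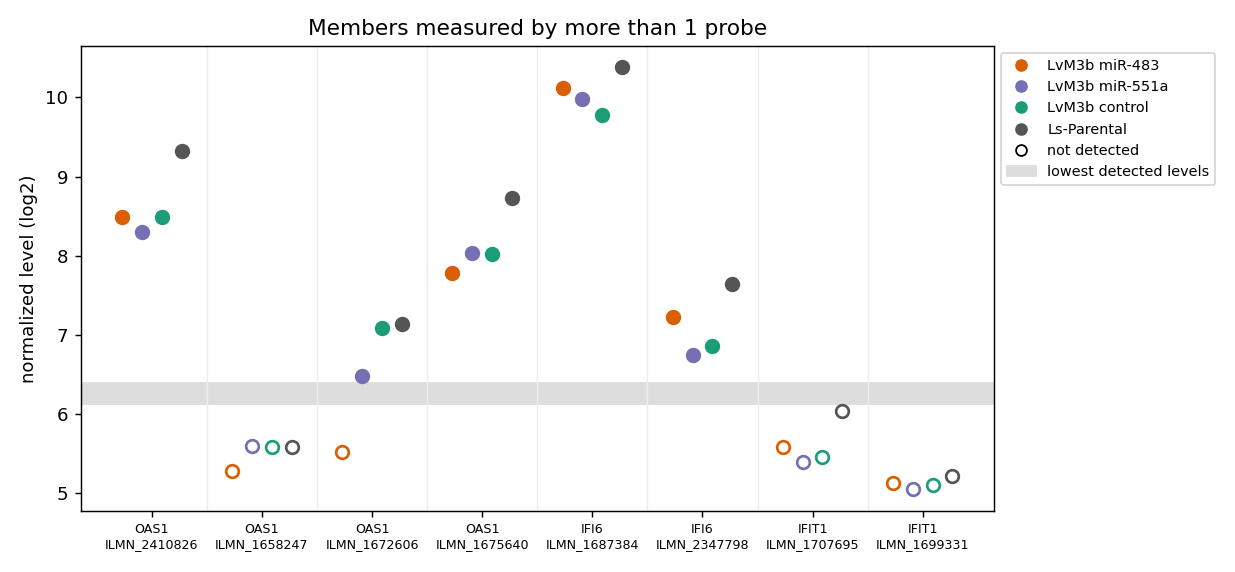
Normalized levels (log2, vertical axis) of each probe of OAS1, IFI6 and IFIT1 on the 4 arrays, open where not detected, with the grey band at the lowest detected levels. OAS1 probes ILMN_2410826 and ILMN_1675640 and both IFI6 probes sit highest in Ls-Parental; OAS1 probe ILMN_1672606 is about level in the LvM3b control and Ls-Parental (7.09 and 7.13) and lies under the band with miR-483.

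The rest of the pathway was read from lists of ligands, receptors, transcription factors, sensors, negative regulators and other effector genes. Of 9 ligand genes, 8 were detected on no array. IFNB1, interferon beta, had levels of 6.37 with miR-483 and 6.40 with miR-551a, against 5.96 in the LvM3b control, where it was not detected. It lay at 6.35 in Ls-Parental. All of these lie close to the detection limits, and the largest bound was 0.01, so no difference in IFNB1 was detectable.

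All 9 receptor and kinase genes were detected on every array, and none differed by 2-fold in any comparison. Their medians were 0.04 with miR-483, 0.02 with miR-551a and -0.14 for LvM3b control over Ls-Parental. IFNGR2, a chain of the interferon gamma receptor, had levels of 11.39, 11.18 and 11.47 on the LvM3b arrays, against 11.74 in Ls-Parental. IL10RB, the chain that interferon lambda shares with interleukin-10, differed by 0.12 between the lines and the kinase TYK2 by -0.22.

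Of 8 transcription factor genes, 6 were measured and the other 2 were not analysed here. None of the 6 reached 2-fold. IRF9, the DNA-binding partner of the STAT proteins at the ISRE, had levels of 9.27, 9.26 and 9.34 on the LvM3b arrays, against 8.78 in Ls-Parental. It was higher on all 3 LvM3b arrays, by 0.56 in the LvM3b control. IRF8, known mainly from blood cells, differed by 0.43 with miR-483, by 0.28 with miR-551a and by -0.33 between the lines. STAT3 differed by 0.19, 0.22 and -0.02 in the same order by its brightest probe. Its other probes, detected on all 4 arrays, differed by 0.45 and -0.06 with miR-483. With miR-551a they differed by 0.56 and 0.40. IRF7, which amplifies interferon gene expression and is named here after its values were seen, was 0.56 lower with miR-483 and 0.31 lower with miR-551a than in the LvM3b control, while its second probe was detected on no array.

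Of 13 sensor and adaptor genes, 9 were detected on at least 1 array. MAVS, the mitochondrial adaptor of the RNA sensors, was 1.05 higher in the LvM3b control than in Ls-Parental, at 7.57, 7.12 and 7.56 on the LvM3b arrays against 6.51. Its second probe, near background, ran the other way (5.46 in the LvM3b control, not detected, and 6.40 in Ls-Parental). MAVS was the only sensor gene at 2-fold by measure and bound, on background-corrected levels. Over all genes, 3.07% were at least 2-fold higher in the LvM3b control than in Ls-Parental. The deposited signals of the brighter MAVS probe, not background-corrected, were 290.8 in the LvM3b control and 168.6 in Ls-Parental, less than 2-fold apart. The lowest detected signal in Ls-Parental was 148.9. TBK1, the kinase downstream of MAVS, was named after its value was seen and was 0.59 higher in the LvM3b control. The list's median was 0.01 with miR-483, -0.09 for miR-551a and 0.25 between the lines. TLR3, a receptor for double-stranded RNA also named after its value was seen, was detected neither with miR-483 nor with miR-551a, with bounds of -0.41 and -0.37 against the LvM3b control. By this brighter probe TLR3 was detected in the LvM3b control (6.56) and in Ls-Parental (6.97). Its second probe, near background, was detected in Ls-Parental only (6.19) and lay at 5.47 in the LvM3b control. Against that control the second probe differed by -0.003 for miR-483 and by 0.13 for miR-551a. Undetected on every LvM3b array, it cannot show whether TLR3 changed there.

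All 4 detected negative regulators were higher than in the LvM3b control with miR-483 (median 0.26) and with miR-551a (median 0.25), beside 51.4% and 51.0% of all genes. None reached 2-fold, and the comparisons share the control array. Those medians are of the brightest probes, and with the mean of all probes they were 0.16 with miR-483 and 0.14 with miR-551a. PIAS1, an inhibitor of STAT binding to DNA, differed by 0.27 with miR-483 and 0.62 with miR-551a. PTPN2, a phosphatase of the JAK and STAT proteins, differed by 0.32 and 0.06, and TRIM21, a ubiquitin ligase that binds antibodies inside cells, by 0.19 and 0.23. USP18, SOCS1 and SOCS3, the classic interferon-induced brakes, were detected on no array.

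Of 45 other effector genes 44 were measured, and 26 were detected on at least 1 array. IFITM3 and IFITM2, relatives of IFITM1 that block virus entry, were 0.38 and 0.32 lower in the LvM3b control than in Ls-Parental. ADAR, which edits double-stranded RNA, differed by -0.13. The list split evenly in both directions, with 12 higher and 14 lower between the lines (median -0.05), 13 and 13 with miR-483 (0.01) and 13 and 11 with miR-551a (0.01). None was at least 2-fold by measure and bound in any comparison. GBP2, an interferon gamma-induced GTPase, was 1.07 lower in the LvM3b control by measured value, but it was not detected there and its bound was -0.05. ISG20, an RNA-degrading exonuclease named after its values were seen, lay at 8.34 with miR-483 and 8.25 with miR-551a, against 8.99 in the LvM3b control, and at 8.98 in Ls-Parental. HERC5, also named after its values were seen, went the other way. It was 0.38 higher with miR-483 and 0.61 higher with miR-551a than in the LvM3b control.

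**Figure D4:**
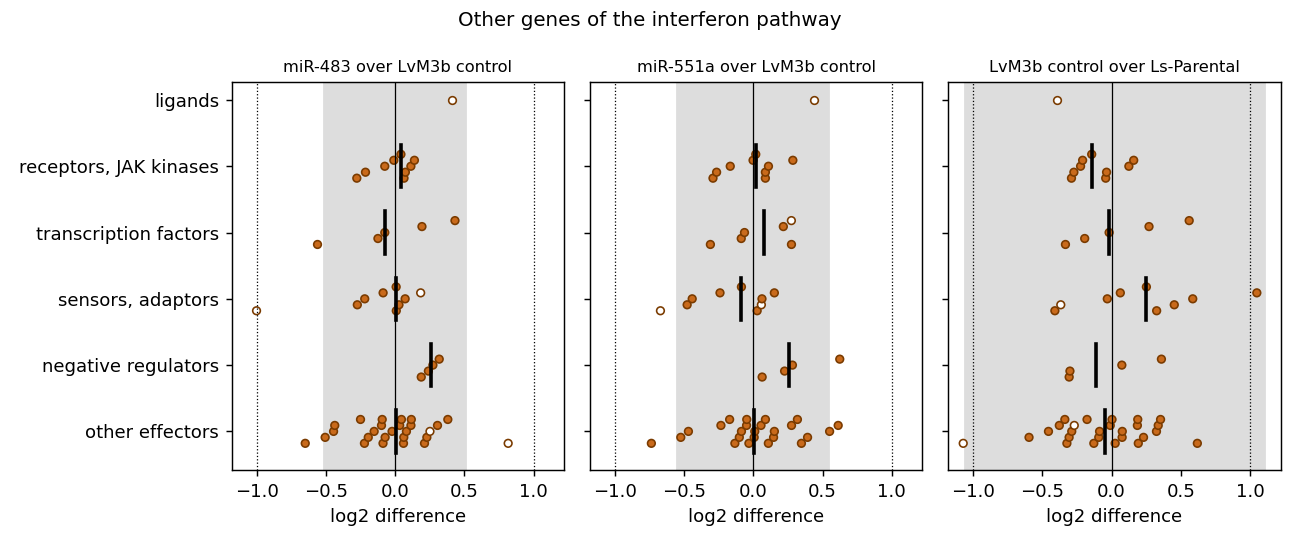
Log2 differences (horizontal axes) of the detected genes of 6 pathway lists in the 3 comparisons, with black bars at the list medians, the middle 95% of all detected genes shaded, dotted lines at 2-fold, and open points where a gene was detected on only 1 of the 2 arrays. Most genes lie inside the shading; the 4 negative regulators all lie right of 0 in both microRNA comparisons, and MAVS is the filled point past 2-fold between the lines.

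The patterns most like that of MX1 over the 4 arrays were sought among 8889 genes detected on all of them, by the Euclidean distance between log2 levels centred on each gene's mean. LPIN1, a phosphatidate phosphatase of lipid synthesis, was nearest (distance 0.04), then OTULINL (0.06) and KIFAP3, a kinesin-associated protein (0.07). LPIN1 differed by 1.06, OTULINL by 1.01 and KIFAP3 by 1.05 between the LvM3b control and Ls-Parental. With 4 arrays such likeness rests mainly on the step between the lines. BST2, not detected in Ls-Parental, was left out of this search.

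Markers of other cell types were read beside these genes. All 4 plasmacytoid dendritic cell markers, from a cell type that makes much interferon, were undetected on every array. Of 7 leukocyte markers measured, CD68 was detected on all arrays and CD14 in Ls-Parental only, while PTPRC, CD3E, ITGAM, HLA-DRA and LAPTM5 were detected on none. The summed normalized signal of the leukocyte markers was 520.3 with miR-483, 538.9 for miR-551a and 499.8 in the LvM3b control, against 917.2 in Ls-Parental. The sum includes the CD14 probe detected in Ls-Parental, at a log2 level of 8.48 there, and a second CD14 probe was detected on no array. The fibroblast genes LUM and COL3A1, of 6 markers, were detected on the LvM3b arrays only. The other 4 (COL1A1, COL1A2, DCN and PDGFRB) were detected on no array. For LvM3b control over Ls-Parental the bound was 2.31 for LUM and 0.49 for COL3A1. The summed signal of all 6 fibroblast markers, undetected ones included, was 490.6, 571.5 and 565.8 on the LvM3b arrays. It was 267.9 on the Ls-Parental array, where none of them was detected. The part of such differences in the levels of BST2, MX1 or OAS1 was not tested.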

How the data were processed

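Signals came from 4 Illumina bead arrays, 1 per group, grouped by sample title. The authors deposited a table of probe intensity on a linear scale that is not normalized between arrays, with a Detection score per probe and array, per the file headers; the detection p was taken as 1 minus the score. A second deposited table of processed intensity equals the first times 1 factor per array (1.03, 1.11, 1.0 and 1.09 for miR-483, miR-551a, LvM3b control and Ls-Parental), which sets every median to 115.4, as a comparison of the tables showed. The sources used here do not give the scanner software, and the RNA was labelled with biotin per the labels' protocols.

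limma 3.58.1 in R 4.3.3 made normexp background correction from the detection p (offset 16), quantile normalization of the 4 arrays and log2 levels, tested on simulated data. Of the probes, 27578 had 1 gene, 13 several and 21212 none in the platform table. Of those with 1 gene, 27541 were matched to RefSeq by gene number and took its symbol. The probe with the highest mean level stood for a gene. Differences were taken over genes that either array of a comparison detected. The promoter of 1 member is not reported here. A bound sets the bright array against the higher of the dim array's own level and its lowest detected level. The members, lists and naming rule were chosen with earlier results of these data known. The rule named all members, at most 6 genes per list at 2-fold by measure or bound, or else the 3 brightest, and the 3 genes nearest in pattern to MX1 and BST2. Cultures behind the arrays had no replicate, so no spread is known. Lists of colon epithelial, leukocyte, plasmacytoid dendritic cell, endothelial, fibroblast and hepatocyte markers were read as well; PECAM1 was the 1 endothelial marker detected, with miR-483 only, and SERPINA1 and FGG were the hepatocyte markers detected, FGG in Ls-Parental only.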

Additional observations from a re-analysis of the deposited data

How the results depend on the processing

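Several alternatives changed the counts of all genes at 2-fold, and between the lines also the count of members and the size of the BST2 difference. No paired analysis was possible because each group has 1 array. For miR-483 over the LvM3b control, 62 genes passed 2-fold, against 3 without background correction, 11 with an offset of 50, 3 on the authors' scaled values, 111 at a detection p under 0.05 and 9 when detected on both arrays. For miR-551a the count was 56, against 6, 17, 8, 114 and 16. For LvM3b control over Ls-Parental it was 570, against 271 without background correction, 282 on the authors' scaled values and 315 when detected on both arrays. The split there was 301 higher and 269 lower, and 184 and 98 on the authors' values, which move the median of all genes to 0.10. Between the lines 2 members passed 2-fold, and 1 did so without background correction, with an offset of 50 (BST2 in both, while MX1 came to 0.93 and 0.997) and when detected on both arrays (MX1). BST2 ranged between 1.28 and 2.09. Of the members' values, 1 of 40 changed sign between the lines (IFI27), 2 of 48 with miR-483 (OAS1) and 0 of 48 with miR-551a. Set against the spread of all genes' differences, as no replicate spread exists, 4 of 40, 1 of 48 and 0 of 48 of these values moved by more than that spread. The mean of all probes is 1 of the settings counted here, and it cannot change the 6 members with a single probe. Signal near background limits BST2 in Ls-Parental and IFIT1 throughout.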
